A study of Rattus norvegicus with 36 samples.

Results

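An siRNA against gp46 was compared with a scramble siRNA in fibroblasts grown from scarred rat vocal folds (VF). The comparison was chosen by the array titles. The 3 arrays titled gp46 siRNA were set against the 3 titled scramble siRNA, which makes 6 of the 36 arrays of the series, and arrays with the same replicate number were treated as a pair. The other arrays hold VF mucosa, and 7 further fibroblast cultures that received no siRNA, namely 4 from scar and 3 from naive VFs. All the cultured cells were primary fibroblasts of Fischer 344 rats, grown as explants from the mucosae of 1 rat per culture and used at passage 1 in medium with 10% serum. The rats were 120 days old at the start and 180 days old at harvest, which was 60 days after injury for the scar, gp46 siRNA and scramble siRNA cultures. Both siRNAs were delivered in liposomes at 50 nM for 1 h to cells that were 80% confluent, and RNA was taken after another 24 h in fresh medium. The untransfected cultures were harvested at passage 1 without that step. The labels do not say whether the gp46 siRNA and scramble siRNA cultures of the same number came from the same rat, and the siRNA sequences are not given in the sources used here, so no sequence is shown.

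The rat protein gp46 is the product of Serpinh1 and is known in other species as HSP47. It is a chaperone of the endoplasmic reticulum (ER) that binds procollagen as its triple helix forms and accompanies it toward the Golgi apparatus. It belongs by sequence to the serpins, a family of protease inhibitors, but it does not inhibit proteases. Fibroblasts of scar tissue produce much collagen, and gp46 has been a target of siRNA in studies of fibrosis. An siRNA acts by guiding the RNA interference machinery to a matching mRNA, so that an effect on the target appears in the mRNA level, whereas effects on collagen secretion need not.

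The values were RMA signals on the log2 scale, where a difference of 1 is a 2-fold change, and each gene was represented by 1 probe set. The fibroblast markers had high signals. The mean log2 signal over 12 fibroblast markers was 12.18 to 12.32 in gp46 siRNA arrays and 12.18 to 12.35 in scramble siRNA arrays. Marker lists of 7 other cell types had means between 4.73 and 7.50 in all 6 arrays. Signals of different probe sets are not comparable as levels, RMA signals have no true zero, and single markers were brighter, up to a mean of 10.87 for the monocyte marker Cd14, 8.80 for the endothelial receptor Tek and 8.28 for S100b of Schwann cells. The values therefore do not show that other cells were absent. Differences were tested with limma in a fit with the replicate number as a block, and a gene was called at an adjusted p under 0.05 over all 14217 genes. The p-values of this fit rest on the spread between these 3 pairs of cultures, with the variance of each gene drawn toward a value shared by all genes.

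Serpinh1 mRNA had a lower signal with gp46 siRNA than with scramble siRNA in every pair, and the signal stayed bright in both groups. Differences may be compressed at so bright a signal, which was not tested, so the share of transcript left is not known. Its log2 signal was 12.43, 12.64 and 12.67 in gp46 siRNA cultures, against 12.98, 12.96 and 12.93 in scramble siRNA cultures of the same numbers. The groups did not overlap, and the lowest signal was that of gp46 siRNA culture 1. The means were 12.58 ± 0.13 with gp46 siRNA and 12.96 ± 0.03 with scramble siRNA (SD, n = 3 each). The difference was -0.38 on the log2 scale with a standard error of 0.09, which is a change in signal of -23.0% (95% interval -34.3% to -9.83%). The pair differences were -0.55, -0.32 and -0.26. In the fit across all genes the unadjusted p was 0.00727 and the Benjamini-Hochberg adjusted p was 0.985, so Serpinh1 was not called. An exact permutation test of the 3 pair differences gave a two-sided p of 0.25, the smallest that 3 pairs allow.

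The array carries another probe set for Serpinh1, with a signal near the low end of the array. It read 5.14, 5.02 and 5.08 in gp46 siRNA cultures and 5.07, 5.06 and 5.38 in scramble siRNA cultures. These groups overlapped, and the difference was -0.09 on the log2 scale (limma, unadjusted p 0.425). The value for Serpinh1 thus rests on the bright probe set, which was above 12 in all 6 arrays. The dim probe set averaged 6.06 ± 0.22 in untransfected scar cultures (SD, n = 4). Averaging both probe sets gave a difference of -0.23 on the log2 scale. Neither probe set measures gp46 protein.

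**Figure D1:**
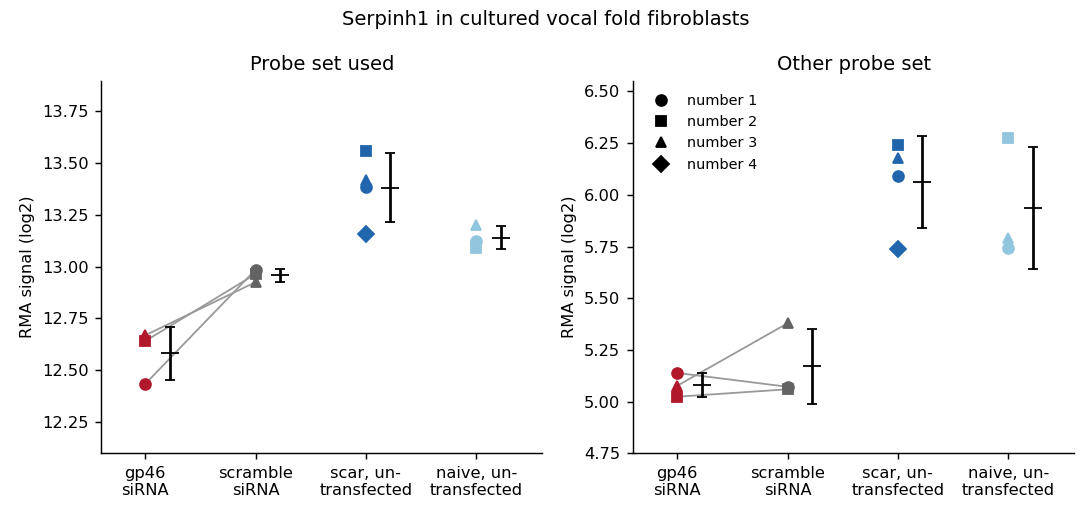
RMA signal (log2) of the 2 Serpinh1 probe sets in cultured VF fibroblasts. Points are arrays, shapes are replicate numbers, lines join cultures of the same number, and bars show the mean and SD of the 3 or 4 arrays of a group. With the probe set used (left), gp46 siRNA cultures lie between 12.43 and 12.67 and scramble siRNA cultures between 12.93 and 12.98. The other probe set (right) reads between 5.02 and 5.38 in both groups.

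Among abundant transcripts Serpinh1 was near the top by size and by p, although it was not called. Of the 630 genes with a mean log2 signal over 12, a limit chosen with the values in view, Serpinh1 had both the most negative difference and the lowest unadjusted p. With a limit of 11 it ranked 1 by the size of a negative difference and 2 by p of 1585 genes, and with a limit of 10 it ranked 2 and 3 of 3273. The genes ahead of it were the collagenase Mmp13 at -0.40 and Plekhb2 at -0.37 on the log2 scale, the last with a mean signal of 11.99, just under the limit of 12. The median size of the difference over the 630 genes was 0.04 on the log2 scale. The next most negative was Mmp14, a membrane-bound collagenase, at -0.35 on the log2 scale (unadjusted p 0.0271). After it came the protein tyrosine kinase-like receptor Ptk7 at -0.20 and the cross-linking enzyme Loxl1 at -0.20. The most positive were Spp1, which encodes osteopontin, at 0.26 and the small heat shock protein Cryab at 0.23. Over all 14217 genes, dim ones included, Serpinh1 ranked 66 by p and 95 by the size of a negative difference.

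Over the whole transcriptome, Serpinh1 included, no difference passed the threshold against the spread between the pairs. No gene was called by limma (0%, lowest adjusted p 0.985), nor any of 31042 probe sets, and a lognormal-normal model with gene-specific variance also called 0 genes. An unadjusted p under 0.05 was reached by 570 genes (4.01%), of which 241 were higher (1.70%) and 329 lower (2.31%) with gp46 siRNA. The counts of the gene lists below are to be read against these shares. The median difference was -0.00 and its median size 0.07 on the log2 scale. A difference of more than 0.5 was measured for 50 genes and of more than 1 for 0 genes.

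Each 95% interval is that of a single gene and gives the range of its difference. It does not give the size of change that would be called, as Serpinh1 was not called although its interval excluded no change. The 95% interval of the difference lay within 1 log2 unit of no change for 99.4% of genes and within 0.5 for 87.8%, and its median half-width was 0.22. The 3 pairs shared little of their pattern. Over genes the SD of the pair difference was 0.20 in pair 1, 0.27 in pair 2 and 0.20 in pair 3, so pair 2 spread most. A total of 3323 genes (23.4%) had the same sign in all 3 pairs, and across genes the pair differences correlated at -0.04, -0.06 and 0.02 (Pearson's r, a description over 14217 genes that share libraries). Values did not overlap between the groups for 903 genes (6.35%).

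**Figure D2:**
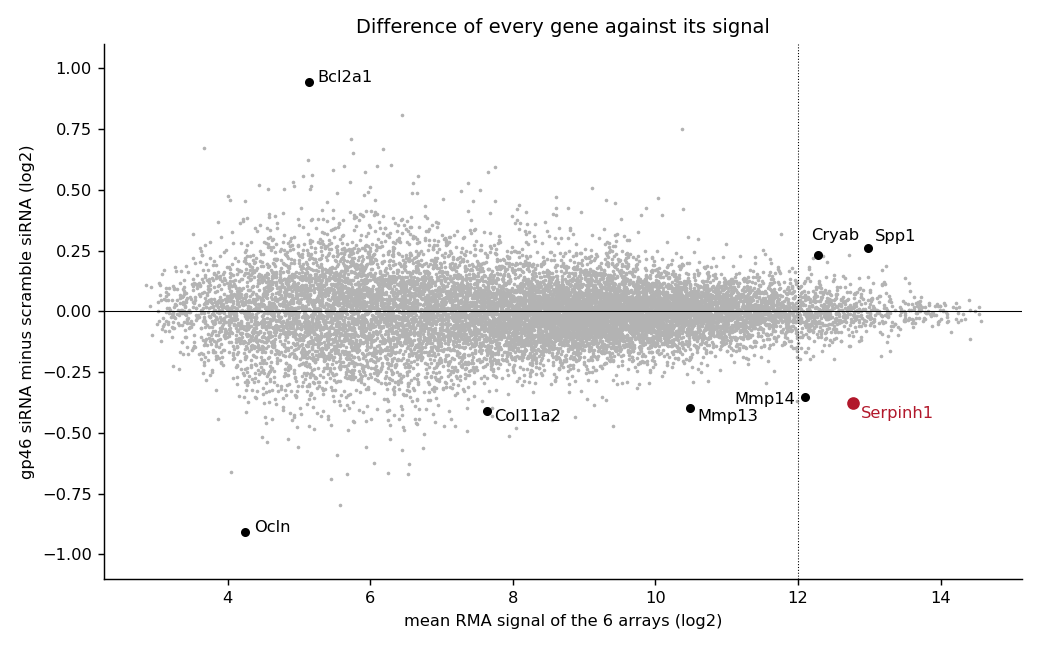
Difference between gp46 siRNA and scramble siRNA (log2, vertical axis) against the mean RMA signal of the 6 arrays (log2, horizontal axis) for 14217 genes, with named genes as large points and a dotted line at a signal of 12. The spread narrows as the signal increases, and Serpinh1 at -0.38 has the most negative difference of the 630 genes right of the line.

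The fibrillar collagens, whose procollagens are the cargo of gp46, had nearly equal mRNA signals in both groups where they were abundant. The major chains of type I and type III collagen were among the brightest transcripts and differed by no more than 0.03 on the log2 scale. Col1a1 read 13.79, 13.79 and 13.67 in gp46 siRNA cultures and 13.79, 13.73 and 13.81 in scramble siRNA cultures. Col1a2 read 14.46, 14.51 and 14.46 in gp46 siRNA cultures and 14.48, 14.46 and 14.48 in scramble siRNA cultures. For Col3a1 the signals were 13.68, 13.97 and 13.89 with gp46 siRNA and 13.72, 13.80 and 13.93 with scramble siRNA. The groups overlapped for all 3 of these genes. Their 95% intervals ran from -0.23 to 0.18, from -0.19 to 0.19 and from -0.18 to 0.25 on the log2 scale, in that order of genes. Col1a2 lay close to the highest signal of any array, 14.74, where probes may be near saturation and differences compressed, which was not tested. The abundant type V chain Col5a2 differed by 0.01 and its partner Col5a1 by -0.15.

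Of the 11 fibrillar collagens, 0 were called and 2 had an unadjusted p under 0.05, both lower with gp46 siRNA (4.01% of all genes had such a p). The median over the 11 was -0.04 on the log2 scale, and 7 were negative, against a median of -0.00 and 51.4% negative over all genes. Those 2 genes were dim. Col11a2, a chain of the type XI collagen that nucleates fibrils, read 7.50, 7.37 and 7.43 with gp46 siRNA and 7.998, 8.02 and 7.52 with scramble siRNA. Its groups did not overlap, and the difference was -0.41 on the log2 scale with a 95% interval of -0.72 to -0.10 (limma, unadjusted p 0.0180, adjusted p 0.985). Col27a1 differed by -0.27 (unadjusted p 0.0445), Col11a1 by -0.25, Col5a3 by -0.13, Col2a1 by -0.04 and Col24a1 by 0.04, all on the log2 scale.

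The other steps of collagen production showed equally small values. None of 21 non-fibrillar collagens had an unadjusted p under 0.05, and their differences lay between -0.19 and 0.17 on the log2 scale with a median of -0.06. The 2 brightest were the basement membrane chain Col4a1 at -0.01 and the short-chain collagen Col8a1 at -0.12. Of 21 genes that fold, hydroxylate or export procollagen, 0 had such a p, the differences lay between -0.13 and 0.12, and the 95% intervals of all 21 stayed within 0.5 of no change.

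The partners of gp46 in the ER are in that list. P4hb, the disulfide isomerase that is also a subunit of prolyl 4-hydroxylase, read 13.46, 13.53 and 13.46 with gp46 siRNA and 13.53, 13.54 and 13.46 with scramble siRNA. Its difference was -0.03 on the log2 scale. The catalytic subunit P4ha1 differed by -0.07, the lysyl hydroxylases Plod1 and Plod2 by -0.04 and -0.09, and the prolyl 3-hydroxylase P3h1 by -0.10. The members of the P3h1 complex, Crtap and the prolyl isomerase Ppib, differed by 0.04 and -0.02, and the collagen-binding prolyl isomerase Fkbp10 by 0.06. Sparc, a collagen-binding glycoprotein, was the brightest gene of the list and differed by -0.02. Mia3, a receptor that loads procollagen into transport carriers, differed by 0.10 on the log2 scale.

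Outside the cell, procollagen is trimmed and cross-linked. Of 7 measured genes of this group 0 had an unadjusted p under 0.05, and their median was -0.05 on the log2 scale. The enhancer of the C-propeptide protease, Pcolce, read 13.16, 13.34 and 13.41 with gp46 siRNA and 13.22, 13.47 and 13.41 with scramble siRNA, a difference of -0.06. The lysyl oxidase Lox differed by 0.12 and its relative Loxl1 by -0.20.

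Of the matrix lists, that of collagen breakdown held the most genes at an unadjusted p under 0.05, and none was called. Of 20 measured members, 4 had an unadjusted p under 0.05, all lower with gp46 siRNA, where 2.31% of all genes did so. The lists were chosen with earlier results of these data known, so this count is a description. The median over the 20 was -0.05 on the log2 scale. The interstitial collagenase Mmp13 read 11.45, 9.71 and 9.71 with gp46 siRNA and 11.75, 10.22 and 10.12 with scramble siRNA. It was lower with gp46 siRNA in each pair, while the 2 groups overlapped because the number 1 cultures stood more than 1 log2 unit above the others. Its difference was -0.40 on the log2 scale with a standard error of 0.08 (limma, unadjusted p 0.00358, adjusted p 0.985).

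Mmp14 read 11.94, 11.79 and 12.05 with gp46 siRNA and 12.14, 12.44 and 12.25 with scramble siRNA. Its groups did not overlap, and its largest pair difference was that of number 2. The stromelysin Mmp10 read 9.36, 8.87 and 8.50 with gp46 siRNA and 9.64, 9.16 and 8.78 with scramble siRNA, a difference of -0.28 on the log2 scale (unadjusted p 0.0102). The pair differences of Mmp10 were close to each other, while its level changed with the culture number. Timp3, a matrix-bound inhibitor of metalloproteinases, differed by -0.22 (unadjusted p 0.0351). The abundant inhibitors Timp1 and Timp2 differed by 0.00 and 0.02, the gelatinase Mmp2 by -0.11 and the stromelysin Mmp3 by -0.16 on the log2 scale.

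**Figure D3:**
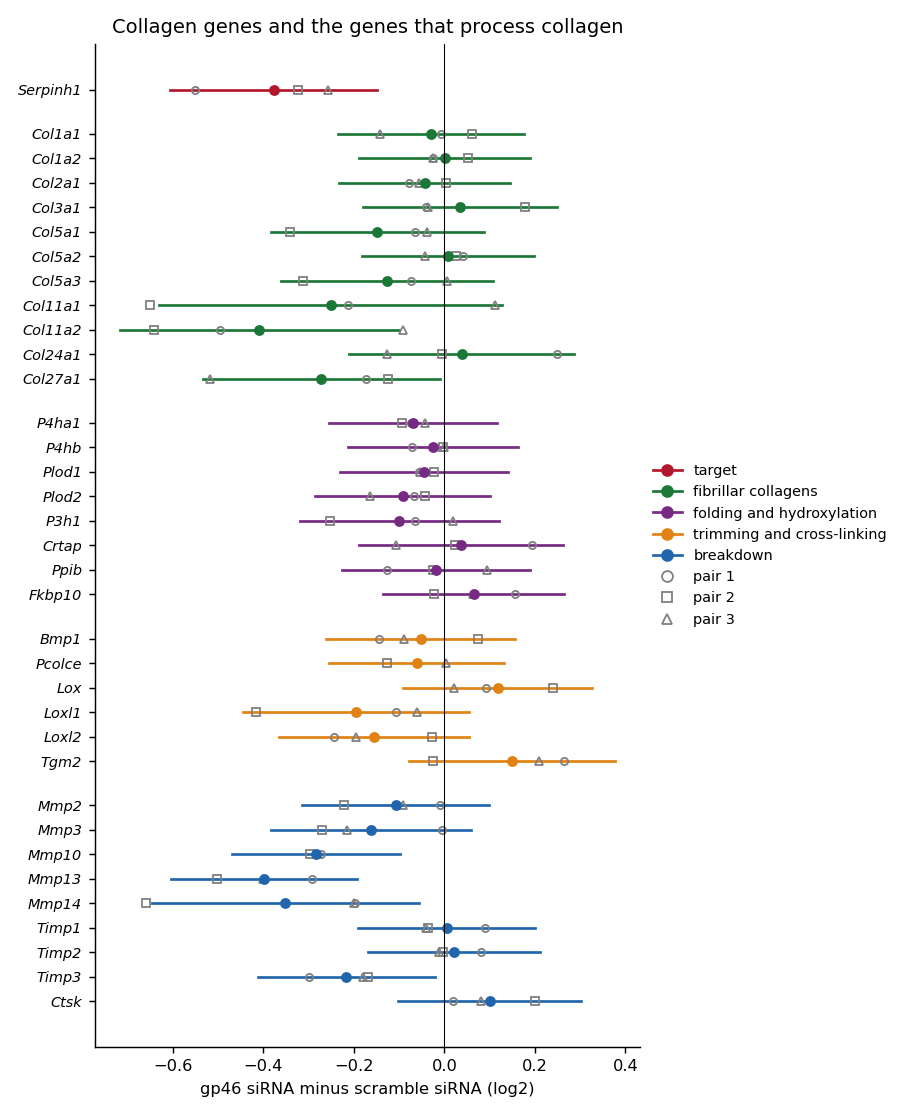
Difference between gp46 siRNA and scramble siRNA (log2) for Serpinh1, the fibrillar collagens and genes of collagen folding, cross-linking and breakdown. Filled points are the fitted differences, lines the 95% intervals, and open shapes the 3 pairs. The interval of Serpinh1 lies below 0, as do those of Col11a2, Col27a1, Mmp10, Mmp13, Mmp14 and Timp3, while Col1a1, Col1a2 and Col3a1 lie within 0.03 of 0.

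The remaining matrix, the contractile apparatus and the signals known to govern both gave medians near 0. Of 29 matrix glycoproteins and proteoglycans, 2 had an unadjusted p under 0.05, the fibrillin Fbn2 at -0.33 and elastin, Eln, at -0.28 on the log2 scale. Over all genes 2.31% had such a p and were lower with gp46 siRNA. Eln read 10.94, 11.02 and 9.82 with gp46 siRNA and 11.29, 11.45 and 9.89 with scramble siRNA, and the pair of number 3 stood far below the other 2. The brightest of the list, the matricellular protein Ccn2 and fibronectin, Fn1, differed by 0.01 and -0.01.

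Among 18 contractile genes of myofibroblasts 0 had such a p, with the actin-binding protein Tagln at 0.03, the tropomyosin Tpm2 at -0.04 and smooth muscle actin, Acta2, at 0.02 on the log2 scale. Of 14 TGF-beta ligands, receptors and SMAD genes 0 had such a p, and the median was -0.02. Its brightest members, the SMAD co-repressor Skil and the ligand Tgfb3, differed by -0.04 and -0.11. Of 14 integrins and collagen receptors only the receptor kinase Ddr1 did, at -0.22 on the log2 scale (unadjusted p 0.0298). It read 9.77, 9.86 and 9.69 with gp46 siRNA and 10.00, 10.09 and 9.87 with scramble siRNA, without overlap. The integrin subunits Itgb1 and Itgav, the brightest of that list, differed by -0.06 and 0.11.

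ER chaperones had similar signals in both groups. When misfolded proteins accumulate in the ER, cells raise chaperones such as Hspa5 through the unfolded protein response. Hspa5 read 12.91, 12.96 and 13.001 with gp46 siRNA and 12.85, 12.91 and 12.85 with scramble siRNA, a difference of 0.09 with a 95% interval of -0.10 to 0.28, and Hsp90b1, another abundant ER chaperone, differed by 0.05. Of 27 genes of this response, 1 had an unadjusted p under 0.05. It was Trib3, a pseudokinase induced by ER stress, at -0.30 on the log2 scale (unadjusted p 0.0225). The median over the 27 was 0.04, and 17 were positive. The transcription factors Atf4 and Ddit3 differed by -0.00 and -0.02, and 26 of the 27 genes had a 95% interval within 0.5 of no change.

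Of 15 cytosolic and mitochondrial heat shock genes, 2 had such a p, both higher with gp46 siRNA, where 1.70% of all genes were. Cryab read 12.27, 12.47 and 12.47 with gp46 siRNA and 12.12, 12.19 and 12.20 with scramble siRNA. These values did not overlap, and the difference was 0.23 on the log2 scale (unadjusted p 0.0280, adjusted p 0.985). Hspa2 differed by 0.27, the chaperonin Hspd1 by -0.02 and Hsp90ab1 by -0.05. Hspa1a, the heat-inducible member, differed by -0.03.

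The relatives of Serpinh1 were measured as well. Without the siRNA sequences this list is no check on matches to related transcripts. Of 15 other serpins, 1 had an unadjusted p under 0.05, and it was higher with gp46 siRNA. This was Serpinb9, an intracellular inhibitor of granzyme B, which read 12.54, 12.47 and 12.38 with gp46 siRNA and 12.27, 12.17 and 12.26 with scramble siRNA. It did not overlap between the groups and differed by 0.23 on the log2 scale (unadjusted p 0.0339). The secreted serpins Serpinf1 and Serpine2 differed by -0.02 and -0.10. The median over the 15 was 0.09, and 10 were positive.

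Double-stranded RNA can set off an interferon response, and both groups received siRNA, so the comparison shows only where the 2 siRNAs differ in this. Of 32 interferon response genes, 2 had an unadjusted p under 0.05, against 4.01% of all genes, and the 2 lay on opposite sides of 0. Rsad2, an antiviral enzyme, read 6.25, 6.44 and 6.24 with gp46 siRNA and 5.86, 5.93 and 6.03 with scramble siRNA, a difference of 0.37 on the log2 scale (unadjusted p 0.00773). Oas1b, of the oligoadenylate synthetase family, differed by -0.46 (unadjusted p 0.00226). The median over the 32 genes was -0.04, and the bright members Ifitm3 and Ifi27 differed by 0.01 and -0.06.

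Of 27 inflammatory mediators, 1 had such a p, the colony-stimulating factor Csf3 at -0.48 on the log2 scale (unadjusted p 0.00303). Csf3 was dim, at 4.95, 4.92 and 5.05 with gp46 siRNA and 5.46, 5.58 and 5.35 with scramble siRNA, without overlap. Il6, Ccl2 and Ptgs2 differed by -0.06, -0.06 and -0.20. The brightest of the list, the interleukin receptor Il1rl1 and the adhesion molecule Icam1, differed by -0.07 and -0.17. Of 11 genes of the RNA interference machinery 0 had such a p. Dicer1, which processes double-stranded RNA, and its partners Tarbp2 and Prkra differed by 0.15, 0.02 and 0.10 on the log2 scale.

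Proliferation and stress genes gave medians near 0. Of 24 cell division genes 0 and of 23 DNA replication genes 1 had an unadjusted p under 0.05, with medians of 0.02 and -0.03 on the log2 scale. The proliferation marker Mki67 read 10.87, 10.29 and 10.65 with gp46 siRNA and 10.68, 10.44 and 10.59 with scramble siRNA. The mitotic genes Prc1 and Cdk1 differed by 0.01 and 0.12 and the replicative helicase subunit Mcm7 by -0.04. The replication clamp Pcna differed by 0.10 and the histone mRNA-binding protein Slbp, the 1 gene with such a p, by -0.27. Of 14 p53 targets and cell death genes 1 had such a p, the survival gene Bcl2l1 at 0.23, while the cell cycle inhibitor Cdkn1a differed by -0.10, Ccng1 by 0.02 and Gadd45a by 0.10.

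Of 21 lysosome and autophagy genes 2 had such a p, against 4.01% of all genes. They were the membrane protein Lamp1 at 0.40 and the autophagy kinase Ulk1 at -0.22 on the log2 scale. The abundant lysosomal proteases Ctsb and Ctsl both differed by -0.03. Of 19 antioxidant genes 2 had such a p, both higher with gp46 siRNA, where 1.70% of all genes were. They were catalase, Cat, at 0.28 and the extracellular dismutase Sod3 at 0.21. The abundant thioredoxin Txn1 and quinone reductase Nqo1 both differed by 0.03. None of 21 genes of sterol and fatty acid synthesis and none of 20 immediate early genes had such a p. The medians of these lists were -0.03 and 0.01. The sterol enzymes Fdps and Msmo1 differed by -0.04 and 0.00, the phosphatase Dusp1 by -0.03 and the transcription factor Fos by 0.08. In all, 0 members of the 22 lists of pathways were called by limma.

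Markers of other cell types were compared because explant cultures can carry other cells. In bulk RNA, fewer cells of a type and less RNA per cell cannot be told apart. Of 9 macrophage and leukocyte markers 8 were positive, where 48.6% of all genes were, with a median of 0.11 on the log2 scale. An unadjusted p under 0.05 was reached by 2 of them, both higher with gp46 siRNA, where 1.70% of all genes were. The marker lists too were chosen with earlier results known, so these counts are a description. The mean log2 signal of this list was 5.50 to 5.92 in gp46 siRNA arrays and 5.44 to 5.73 in scramble siRNA arrays. Within the pairs the list mean was higher with gp46 siRNA by 0.20, 0.23 and 0.06 on the log2 scale. The leukocyte antigen Ptprc read 4.20, 4.69 and 3.85 with gp46 siRNA and 4.24, 3.79 and 3.29 with scramble siRNA, at the dim end of the array. Lyz2, which encodes lysozyme, was the 1 member higher in all 3 pairs. It read 9.28, 8.19 and 7.54 with gp46 siRNA and 9.01, 7.99 and 7.15 with scramble siRNA, a difference of 0.29 on the log2 scale (unadjusted p 0.0145).

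The skeletal muscle markers ranged more widely. Their mean log2 signal was 5.98 to 7.28 in gp46 siRNA arrays and 5.91 to 7.50 in scramble siRNA arrays, highest in the number 2 culture of each group. Of 9 epithelial markers 2 had an unadjusted p under 0.05, against 4.01% of all genes. Krt5 differed by 0.49 and Epcam by -0.29 on the log2 scale. The means of the epithelial list were 5.85 to 5.93 in gp46 siRNA arrays and 5.75 to 5.94 in scramble siRNA arrays. The part of these markers in any other difference was not tested.

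The genes of lowest unadjusted p were mostly dim. No gene was called, so the 12 of lowest p in each direction with the same sign in all 3 pairs are given as a description. Their unadjusted p ran from 0.000557 to 0.00463, and 23 of the 24 had a mean signal under the median of 8.33 over all genes. The lowest p was that of Lyl1, a helix-loop-helix transcription factor of blood cells. It read 5.31, 4.89 and 5.52 with gp46 siRNA and 5.92, 5.59 and 5.998 with scramble siRNA, and the difference was -0.59 on the log2 scale with a standard error of 0.08. The other negative differences were Zfp329, Cysrt1, Padi1, Lime1, Upk1a, Mybpc2, Lrrn4cl, Mal2, Phkg1, Ccnjl and Pakap, and the 12 lay between -0.67 and -0.41 on the log2 scale.

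The 12 positive differences lay between 0.35 and 0.67 on the log2 scale. They were those of Kcne3, Myf6, Pierce1, Akap14, Prr15, Acer2, Tbxas1, Prl7d1, Krt19, Akap6, Rgs3 and Pkhd1l1. The largest was that of Akap14, an anchoring protein of protein kinase A, which read 6.64, 6.43 and 6.47 with gp46 siRNA and 5.66, 5.75 and 6.14 with scramble siRNA. Of the 24 genes, 10 had further probe sets on the array, and these often differed from the ones used. For Kcne3 the probe set used gave 0.40 and the other -0.35, and for the muscle protein Mybpc2 they gave -0.67 and 0.35. For Rgs3 the bright probe set, at a mean of 10.78, gave 0.00 where the one used gave 0.38.

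Differences of more than 0.5 on the log2 scale with the same sign in all 3 pairs were measured for 38 genes (0.267%), 22 higher and 16 lower with gp46 siRNA. The most positive was Bcl2a1, a survival protein of the Bcl2 family, at 0.94 with a standard error of 0.24. It read 5.12, 5.83 and 5.89 with gp46 siRNA and 4.92, 4.38 and 4.71 with scramble siRNA. The most negative was Ocln, which encodes the tight junction protein occludin, at -0.91 with a standard error of 0.20. It read 3.74, 3.73 and 3.92 with gp46 siRNA and 4.05, 5.00 and 5.06 with scramble siRNA. Both had a small difference in pair 1 and larger ones in the other pairs.

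Many more genes were called between culture numbers than between siRNAs. This test was added with the data in view. Each number holds 1 culture of each siRNA, so the test describes these 3 numbers, and the 2 counts are not a like-for-like comparison. Between the 3 numbers, averaged over both siRNAs, 161 genes differed by limma's moderated F test at an adjusted p under 0.05 (1.13%). For these genes the range of the 3 number means had a median of 1.25 and a maximum of 3.56 on the log2 scale, an 11.8-fold range. The median size of their siRNA difference was 0.08, close to the 0.07 over all genes. The maximum belonged to Thbs4, a thrombospondin of tendon and muscle matrix, which read 5.01, 7.56 and 8.57 with gp46 siRNA and 4.86, 7.598 and 8.41 with scramble siRNA. The count of 161 was 151 without number 1, 25 without number 2 and 20 without number 3, where 2 numbers remained to be compared.

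Several of these genes are cytokines. Il6 read 8.26, 9.84 and 10.59 with gp46 siRNA and 8.38, 9.72 and 10.77 with scramble siRNA. The interleukin 1 receptor antagonist Il1rn read 7.55, 8.92 and 10.76 with gp46 siRNA and 7.47, 9.20 and 10.88 with scramble siRNA. Culture 1 was the lowest and culture 3 the highest for both, as for the chemokines Ccl2 and Ccl7. In the list of 27 inflammatory mediators 6 differed between numbers, where 1.13% of all genes did.

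Other genes had another order. Of 9 skeletal muscle markers 5 differed between numbers, against the same 1.13% of all genes. The muscle regulator Myog read 6.13, 8.45 and 5.84 with gp46 siRNA and 6.11, 8.59 and 5.42 with scramble siRNA, so that only the number 2 cultures stood high. Of 20 collagen breakdown genes 4 differed between numbers, Mmp13 and Mmp10 among them. Of the 11 fibrillar collagens 0 did, and the Serpinh1 means of the 3 numbers lay within 0.09 on the log2 scale of each other.

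**Figure D4:**
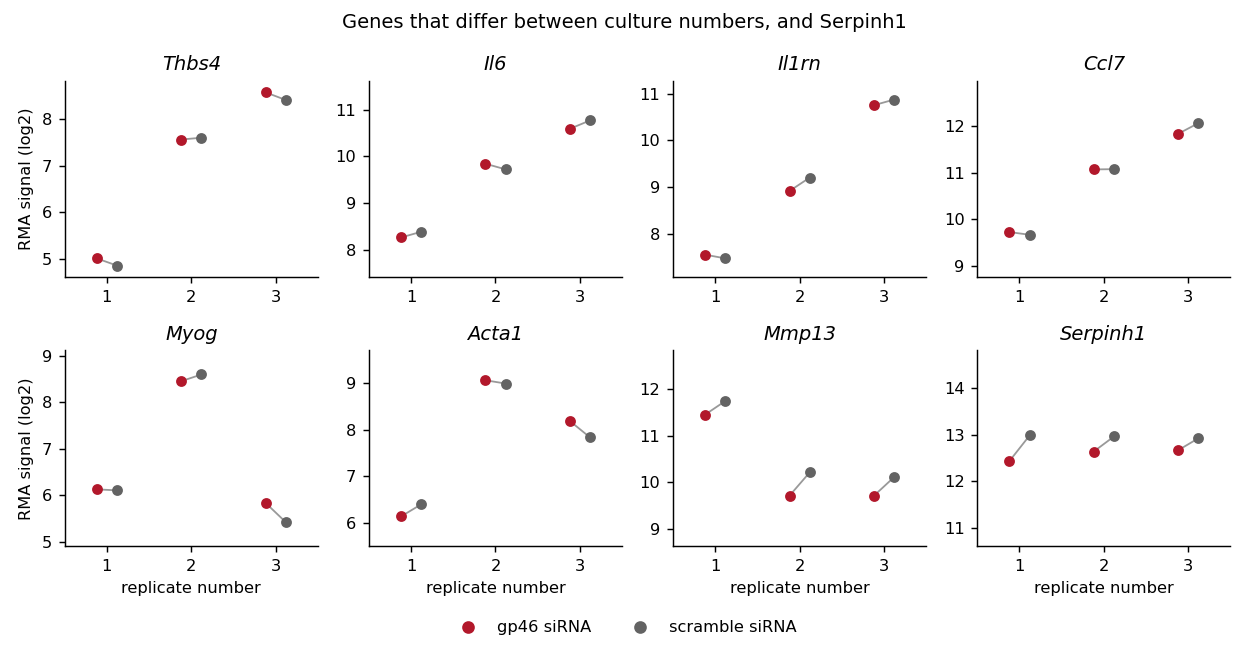
RMA signal (log2) of 7 genes that differ between the 3 culture numbers, and of Serpinh1, in gp46 siRNA cultures (red) and scramble siRNA cultures (grey). Lines join cultures of the same number, and every panel spans the same number of log2 units. Thbs4 spans 3.56 log2 units between number means, whereas the gp46 siRNA point of Serpinh1 lies below its scramble siRNA point in each of the 3 pairs.

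The untransfected scar cultures put the size of the siRNA differences on a scale. This comparison was added with the data in view and used 1 limma fit of the 4 fibroblast groups over 13 arrays. That fit had no pairs, so its p-values rest on the spread within groups. Against untransfected scar cultures, 4623 genes were called with gp46 siRNA, 2441 higher (17.2%) and the rest lower (15.3%). With scramble siRNA 4269 genes were called, 2341 higher (16.5%) and 1928 lower (13.6%), whereas gp46 siRNA against scramble siRNA gave 0 in the same fit. Both comparisons share the same 4 scar arrays. The siRNA step, the liposomes, the fresh medium, the later harvest and any difference between the rats or cultures used cannot be told apart in these comparisons.

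Serpinh1 itself was lower in both transfected groups than in untransfected scar cultures, which read 13.38, 13.56, 13.42 and 13.16. The difference was -0.80 on the log2 scale with gp46 siRNA (adjusted p 7.13e-05) and -0.42 with scramble siRNA (adjusted p 0.00484). These are changes in signal of -42.6% with gp46 siRNA and -25.4% with scramble siRNA. In naive cultures Serpinh1 read 13.12, 13.09 and 13.20. All these values are of the bright probe set. The dim one averaged 5.08 with gp46 siRNA and 5.17 with scramble siRNA. Its mean was 6.06 in untransfected scar cultures and 5.94 in naive cultures.

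Most proliferation genes were called higher in both. Against untransfected scar cultures, 24 of 24 cell division genes were called higher with gp46 siRNA, with a median difference of 2.70 on the log2 scale, where 17.2% of all genes were. With scramble siRNA 23 of 24 were called higher, with a median of 2.66, where 16.5% of all genes were. For Mki67 the means were 10.60 with gp46 siRNA, 10.57 with scramble siRNA and 7.11 in untransfected scar cultures. Of 23 DNA replication genes 21 were called higher in each.

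Of the 11 fibrillar collagens, 9 were called lower with gp46 siRNA and 6 with scramble siRNA against untransfected scar cultures, where 15.3% and 13.6% of all genes were called lower in these 2 comparisons. Of 21 other collagens, 12 were called lower and 2 higher with gp46 siRNA, and 8 lower and 2 higher with scramble siRNA. The counts of the fibrillar collagens differ by 3 genes, Col5a1, Col11a2 and Col27a1, called with gp46 siRNA and not with scramble siRNA. None of the 3 was called between the siRNAs. Col1a1 differed by -0.66 on the log2 scale with gp46 siRNA and by -0.63 with scramble siRNA. Of 18 contractile genes of myofibroblasts, 14 were called lower with gp46 siRNA and 13 with scramble siRNA. The 9 skeletal muscle markers had medians of -2.22 with gp46 siRNA and -2.14 with scramble siRNA on the log2 scale. Of these markers 1 was called lower in each comparison, and their part in the contractile counts was not tested. Of 21 sterol and fatty acid synthesis genes, 18 were called lower with gp46 siRNA and 17 with scramble siRNA. Of 32 interferon response genes, 9 were called higher and 3 lower with gp46 siRNA, where 17.2% of all genes were called higher. With scramble siRNA 10 were called higher and 1 lower, where 16.5% of all genes were called higher.

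**Figure D5:**
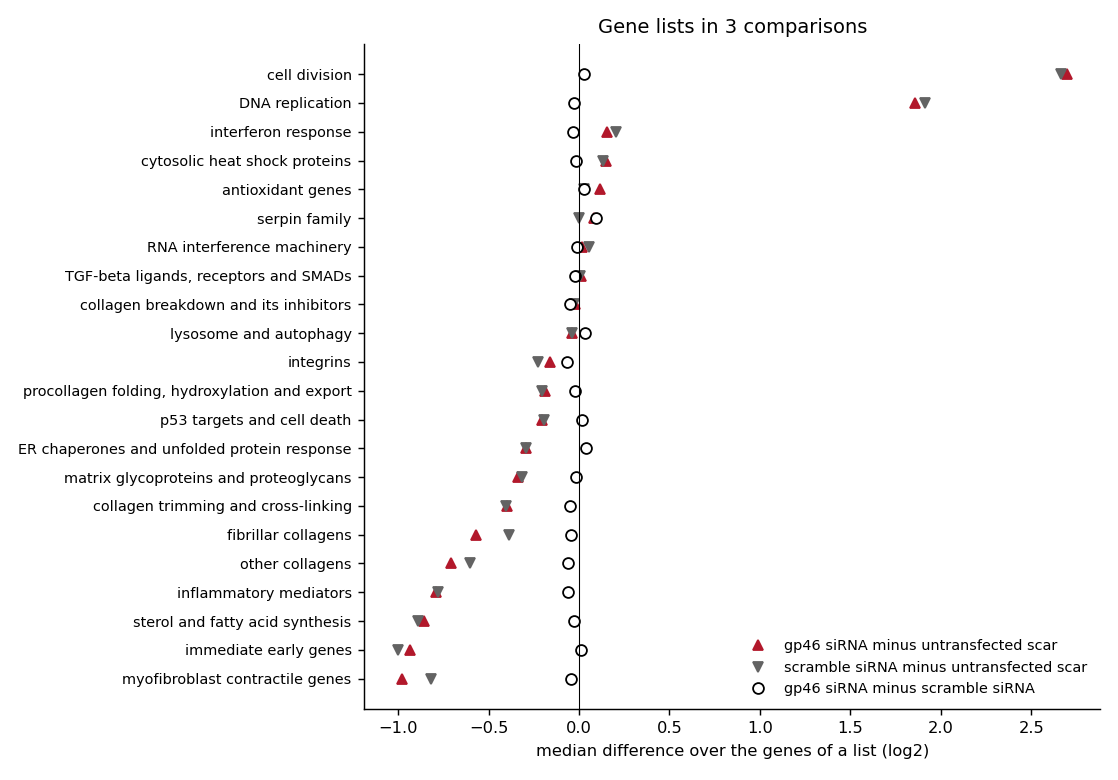
Median difference (log2) over the measured genes of 22 lists in 3 comparisons, gp46 siRNA minus untransfected scar (triangles up), scramble siRNA minus untransfected scar (triangles down) and gp46 siRNA minus scramble siRNA (open circles). The first 2 comparisons share their scar arrays. Open circles lie between -0.07 and 0.09 in every list, while the cell division list reaches 2.70 and 2.66 against untransfected scar.

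The differences between scar and naive cultures were set beside those of the siRNA, to see whether genes raised or lowered in scar fibroblasts moved with gp46 siRNA. Between 4 scar and 3 naive cultures 131 genes were called (0.921%), 45 higher and 86 lower in scar. The 45 had a median siRNA difference of -0.00 and the 86 a median of -0.03 on the log2 scale. At an unadjusted p under 0.05, gp46 siRNA differed from scramble siRNA in 0 of the 45 and in 6 of the 86, against 4.01% of all genes. Of the 86 genes, 38.4% were higher with gp46 siRNA than with scramble siRNA, against 48.6% of all genes, and of the 45, 51.1% were lower, against 51.4%. Across all genes the correlation of the siRNA difference with the difference between scar and naive cultures was 0.02 (Pearson's r, a description), and for the 3 pairs taken alone it was 0.08, -0.05 and 0.04.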

How the data were processed

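Arrays were Affymetrix rat genome arrays. The authors summarized the probes with RMA in the affy package, and the deposited values are log2 signals between 2.72 and 14.74 whose sorted values differ by at most 0.03 between the 36 arrays. Background correction could not be varied here. After removal of 57 control probe sets, 31042 remained, of which 20826 had 1 gene symbol, 436 several and 9780 none. They stood for 14217 genes, and where a gene had several, the one whose mean intensity was the median was used (of an even number, the brighter of the central 2). Symbols were updated through RefSeq gene numbers.

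The 6 siRNA arrays were fitted with limma 3.58.1 in R 4.3.3, with the siRNA and the replicate number as terms, which left 2 residual degrees of freedom, 5.56 with the prior. Cultures were paired by replicate number. Deviations from the group means correlated at 0.43, 0.18 and 0.47 within numbers and at -0.40 to -0.01 between them. Centring within each group makes positive values within numbers go with negative values between them, so this contrast is no test of the pairing. Calls used Benjamini-Hochberg adjusted p under 0.05 over all genes. The fit was tested on simulated data. The lognormal-normal model used 20 iterations and a posterior over 0.95. The array number limits precision.

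Members, the 30 gene lists and the rule for named genes were chosen with earlier results of these data known. The rule took Serpinh1, the 12 genes of lowest p in each direction, all fibrillar collagens and the 2 brightest members of each list where none was called. Genes outside it, such as those with an unadjusted p under 0.05, were named with their values in view. Plots came from matplotlib 3.10.9 under Python 3.11.15.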

Additional observations from a re-analysis of the deposited data

How the results depend on the processing

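The comparison of gp46 siRNA with scramble siRNA gave 0 called genes under all 15 alternatives and 0 called probe sets under all of theirs. The alternatives covered the pairing, the fit of 13 arrays, the choice of probe set, centring, a repeated quantile normalization, a filter on dim genes, array weights, 2 forms of the variance prior, the lognormal-normal model and each pair left out. The lowest adjusted p of any gene was 0.0591, without replicate 1. With no replicate block the count of genes was 0, as it was with the replicate block as a random effect, so the paired analysis changed no call. Genes at an unadjusted p under 0.05 numbered 349 with no replicate block, 299 in the fit of 13 fibroblast arrays, 372 without the 30% of genes of lowest mean and 824 without replicate 1, against 570. The Serpinh1 difference stayed negative under all 14 alternatives, between -0.44 and -0.23 on the log2 scale, with unadjusted p between 0.000249 and 0.0497 and adjusted p of at least 0.855. Its weakest value came from averaging both probe sets, -0.23, which moved it by over 1.5 times. Leaving out a pair gave -0.44 to -0.29. Of 1262 values of 92 named genes under the alternatives, 0 were called and 54 changed sign. The correlation with the scar and naive difference ranged from -0.02 to 0.09. The test of the culture numbers and the comparisons with untransfected scar, with their alternatives, were chosen after seeing the data. The count of genes that differ between culture numbers was 279 without the 30% of lowest mean, 498 with an intensity trend in the variance prior, and 20 to 151 with 1 number left out. The counts against untransfected scar stayed within 1.5 times of 4623 and 4269 under every alternative run. Changes that fall inside the intervals or short of a call, and changes in protein, are not covered by these arrays.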
